A study of Mus musculus with 4 samples.

Results

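Serpins and the plasminogen activation system were followed in cultured mouse mammary tumour cells that were labelled high or low in Arid1a, a subunit of chromatin remodellers of the SWI/SNF type that binds DNA. The members were all genes of the deposited table with a serpin symbol (Serpin, a clade letter and a number, with or without a final letter), and with them the 5 genes Plau, Plaur, Plat, Plg and Plgrkt. This gave 67 of 23361 genes, of which 62 were serpins. At least 1 FPKM (the authors' level of a transcript, scaled for its length and for library depth) was reached in any library by 22 members, 18 serpins and 4 of the other 5, and 21 of these are named below with their levels. The members nearest to that limit were Serpinb9c and Serpinb9b above it, with highest values of 1.81 and 2.37 FPKM, and Serpinb11 and Serpina3n below it, with 0.807 and 0.795 FPKM.

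The High group held 1 library from each of a pair of clones, AB-C1 and AB-C2, which had been transduced with a lentivirus for over-expression of Arid1a. The Low group held duplicate libraries of the line they derived from, 23116 MT, which came from a mammary tumour of the Chaos3 mouse. All 4 libraries thus share the Chaos3 background, named for a mutant allele of the replicative helicase subunit Mcm4, and the strain C3HeB/FeJ. None of the libraries is labelled as an empty-vector control, and each clone is represented once, so that a difference between the groups cannot be told apart from what sets any clone apart from its parent line. The table numbers the libraries within each group but does not say which High library is which clone.

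Urokinase (Plau) and tissue-type plasminogen activator (Plat) are secreted proteases that cut plasminogen (Plg) into plasmin, which degrades fibrin and other matrix proteins. The urokinase receptor (Plaur) holds urokinase at the cell surface, and invading mammary tumours are known to use this system. Most serpins stop a serine protease by offering it a bait loop, which traps the enzyme once cut. Serpinb2 (PAI-2) and Serpine2 (protease nexin-1) act on the plasminogen activators, clade B serpins are mostly intracellular, and some serpins, such as the collagen chaperone Serpinh1, inhibit no protease.

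Library depth was 16523077 and 24307249 fragments in High and 13889856 and 28110812 fragments in Low. Arid1a itself had 6.16 and 7.22 FPKM in High against 10.2 and 11.7 FPKM in Low (log2 fold change -0.71 ± 0.23 SE, adjusted p = 0.165). Arid1a was thus not higher in the libraries labelled High, and it is not known if transcripts of the vector could be counted there. All directions below are therefore those of the labels. All 7 epithelial markers had fragments, but Krt5 reached at most 0.505 FPKM in any library. The list summed to 1288.2 and 3086.1 FPKM in High against 1608.7 and 1081.3 FPKM in Low. The highest levels in the list were those of Krt14, Krt8 and Krt18. Krt14 gave 859 and 1791.8 FPKM in High and 663 and 418 FPKM in Low. Krt8 had 138 and 541 FPKM in High against 401 and 274 FPKM in Low, and Krt18 had 151 and 474 FPKM against 443 and 297 FPKM. For Krt8 and Krt18, High library 1 lay below both Low libraries and High library 2 above them. Summed over 5 markers each, the endothelial list reached at most 0.226 FPKM and the hepatocyte list at most 0.19 FPKM in any library.

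Of the 24 members that passed the filter on low counts, 1 rose and 3 fell in the libraries labelled High, against 2.47% of all 12987 genes tested in either direction (1.14% higher and 1.33% lower). The riser was Serpinb2, and the fallers were Plau, Plat and Serpinf1. Serpins that are low or absent in Low could pass the filter only by being high in High, so the number that passed says nothing of its own. All 4 calls held with either High library left out and were lost with either Low library left out. A fit with 1 library in a group takes its spread from the other group alone. Over all genes, calls were far more frequent without a High library and absent without a Low library, so neither outcome was read as support. Without High library 1 and without High library 2, the log2 fold changes were 5.58 and 6.17 for Serpinb2 and -4.01 and -3.71 for Serpinf1. They were -1.61 and -1.99 for Plau and -1.60 and -1.82 for Plat. Without Low library 1 and without Low library 2, they were 6.26 and 5.46 for Serpinb2, -3.72 and -3.98 for Serpinf1, -1.83 and -1.75 for Plau, and -1.64 and -1.78 for Plat. Without Low library 1, 970 genes had an unadjusted p under 0.05, and 800 had one when Low library 2 was left out. DESeq2 on all 4 libraries called 8 members higher and 4 lower, against 8.75% of all genes (4.7% higher and 4.04% lower).

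**Figure D1:**
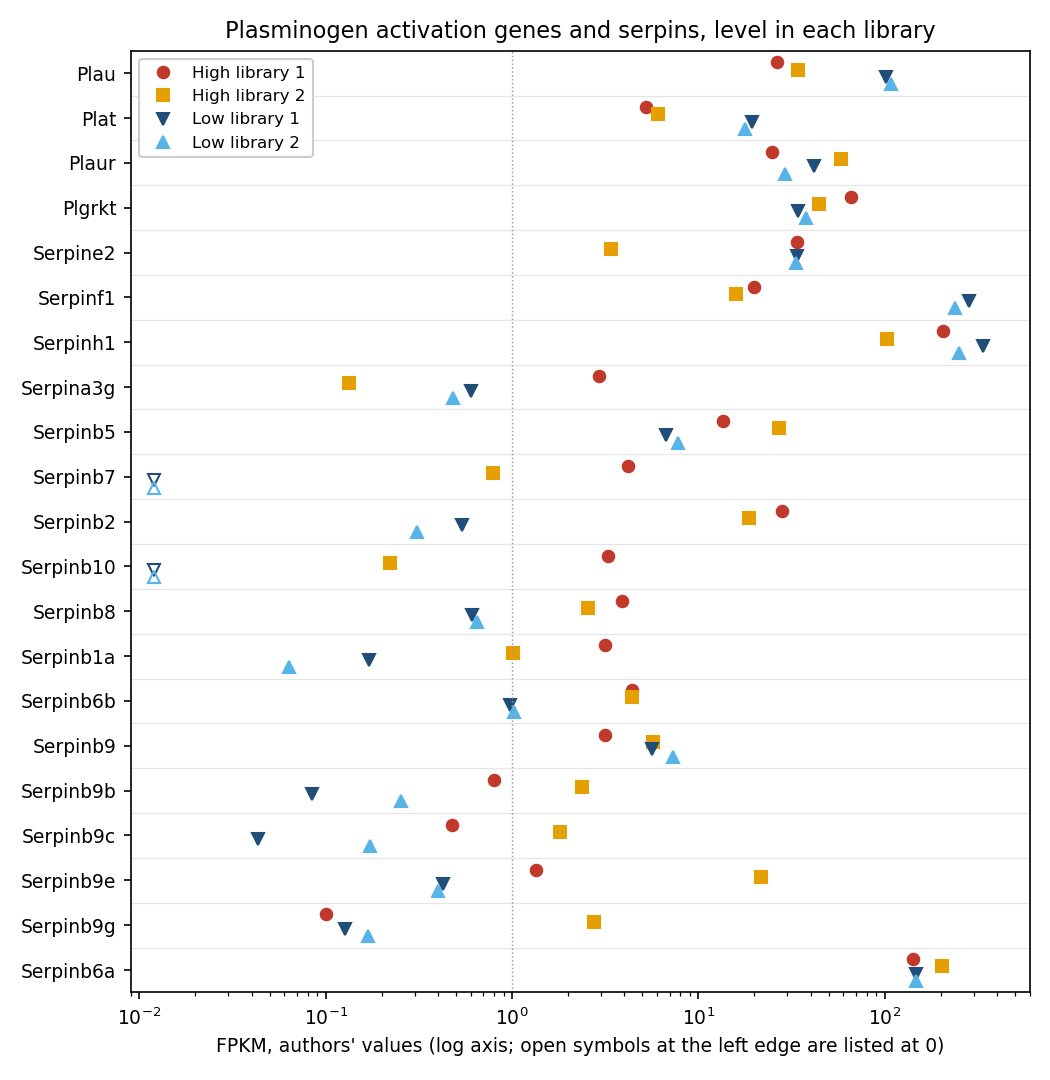
Level of 21 members with at least 1 FPKM in any library, in the authors' FPKM on a log axis, with 1 symbol per library and the dotted line at 1 FPKM. Plau, Plat and Serpinf1 lie to the left in both High libraries, Serpinb2 lies to the right of the Low libraries by the widest gap of the genes detected in Low, and Serpine2 separates the High libraries from each other.

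Both plasminogen activators fell. Plau (ENSMUSG00000021822, chromosome 14, 20836660 to 20843385, mm10) had 26.3 and 34.1 FPKM in the High libraries, against 102 and 108 FPKM in the Low libraries. The groups did not overlap, and the gap between them was far wider than the distance between the libraries of either group. The means were 30.2 ± 5.56 and 105 ± 4.51 FPKM (SD, n = 2 each), 3.45-fold lower in High (log2 fold change -1.79 ± 0.24 SE, adjusted p = 0.0122). Plat (chromosome 8, 22757727 to 22782844) was less abundant, at 5.26 and 6.07 FPKM in High against 19.5 and 17.8 FPKM in Low. Its difference was of like size, 3.26-fold lower in High (log2 fold change -1.71 ± 0.26 SE, adjusted p = 0.022). Between the clones, neither Plau nor Plat passed the test (adjusted p = 0.621 and 0.841).

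Neither receptor on the cell surface passed the test. Plaur (chromosome 7, 24462484 to 24475968) had 24.7 and 58.3 FPKM in High against 41.8 and 29.3 FPKM in Low, so that the High libraries lay on either side of the Low ones. The fitted log2 fold change was 0.24 ± 0.44 (SE, adjusted p = 0.829), and it became -0.52 without High library 2. The ratio of Plau to Plaur FPKM was 1.06 and 0.586 in High against 2.43 and 3.69 in Low. Plgrkt (chromosome 19, 29348599 to 29367390), a membrane protein that binds plasminogen, had 65.6 and 44.2 FPKM in High against 34.1 and 37.7 FPKM in Low. Its groups did not overlap, but the difference did not reach the threshold (log2 fold change 0.62 ± 0.29 SE, adjusted p = 0.32). Plg itself, which is made mainly in the liver, had 0 fragments in all 4 libraries, so plasminogen RNA was not detectable at this depth.

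Serpinb2 (chromosome 1, 107511423 to 107535478), an inhibitor of urokinase, rose where the activators fell. It had 28.2 and 18.7 FPKM in High against 0.536 and 0.308 FPKM in Low, from 876 and 831 fragments in High and 13 and 15 fragments in Low. The means were 23.5 ± 6.68 and 0.422 ± 0.161 FPKM (SD, n = 2 each), 58.4-fold higher in High (log2 fold change 5.87 ± 0.45 SE, adjusted p = 0.0021). The High libraries were within 1.51-fold of each other (adjusted p = 0.396).

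Serpine2 (chromosome 1, 79794197 to 79861180), which inhibits thrombin and urokinase, had 34 and 3.4 FPKM in High against 33.8 and 33.3 FPKM in Low. High library 1 was level with both Low libraries, and High library 2 alone was low. The High libraries differed 10-fold (log2 difference 3.32 ± 0.39 SE, adjusted p = 5.28e-15), and the groups did not pass the test (adjusted p = 0.777).

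Serpinf1 (PEDF, a secreted serpin that inhibits no protease and is known to restrain angiogenesis) had the largest fall of the called members. Serpinf1 (chromosome 11, 75409769 to 75422701) had 19.8 and 16 FPKM in High against 282 and 238 FPKM in Low. The High libraries were close to each other (1.24-fold, adjusted p = 0.713), and the means of 17.9 ± 2.69 and 260 ± 31.1 FPKM (SD, n = 2 each) lay 14.4-fold apart (log2 fold change -3.85 ± 0.26 SE, adjusted p = 0.0021). Its neighbour Serpinf2, the plasmin inhibitor alpha-2-antiplasmin, was below 1 FPKM in every library.

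Serpinh1 (HSP47, the collagen chaperone of the endoplasmic reticulum, chromosome 7, 99345376 to 99353239) stood at 205 and 103 FPKM in High against 336 and 251 FPKM in Low. The groups did not overlap, but the gap was no wider than the distance between libraries of a group, and Serpinh1 missed the threshold (log2 fold change -0.92 ± 0.36 SE, adjusted p = 0.256). High library 1 exceeded High library 2 1.99-fold (adjusted p = 0.0309). Of 17 collagen chains and collagen-modifying enzymes, all tested, 0 passed edgeR's test. The unadjusted p was below 0.05 for 6 of them (18.1% of all genes), DESeq2 called 3 lower (4.04% of all genes), and limma-voom called 2 (1.67% of all genes). Their median log2 fold change was -0.87, beside 0.03 over all genes tested. The 3 with the highest levels were P4hb, a subunit of prolyl hydroxylase, at 430 and 289 FPKM in High against 409 and 370 FPKM in Low, Col1a1 at 13.9 and 3.53 FPKM against 557 and 471 FPKM, and Col3a1 at 31.1 and 0.375 FPKM against 365 and 340 FPKM.

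The list of 7 fibroblast markers summed to 248 and 38.3 FPKM in High against 718 and 633 FPKM in Low, a difference carried by Col1a1, which is also in the collagen list. Without Col1a1 the sum was 235 and 34.8 FPKM in High against 161 and 162 FPKM in Low, so that High library 1 lay above both Low libraries and High library 2 below them. Fap alone passed the test, 6 of the 7 had fragments in any library, and Lum was listed at 0 throughout. Markers of the list differed in direction. Examples chosen after their values were seen are Pdgfrb at 80.3 and 19.1 FPKM in High against 138 and 133 FPKM in Low and Dcn at 118 and 11.5 FPKM against 2.48 and 3.4 FPKM. Their part in the results for Serpine2, Serpinf1 and Serpinh1 was not tested, and in these bulk samples fewer cells of a type and less RNA per cell cannot be told apart.

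**Figure D2:**
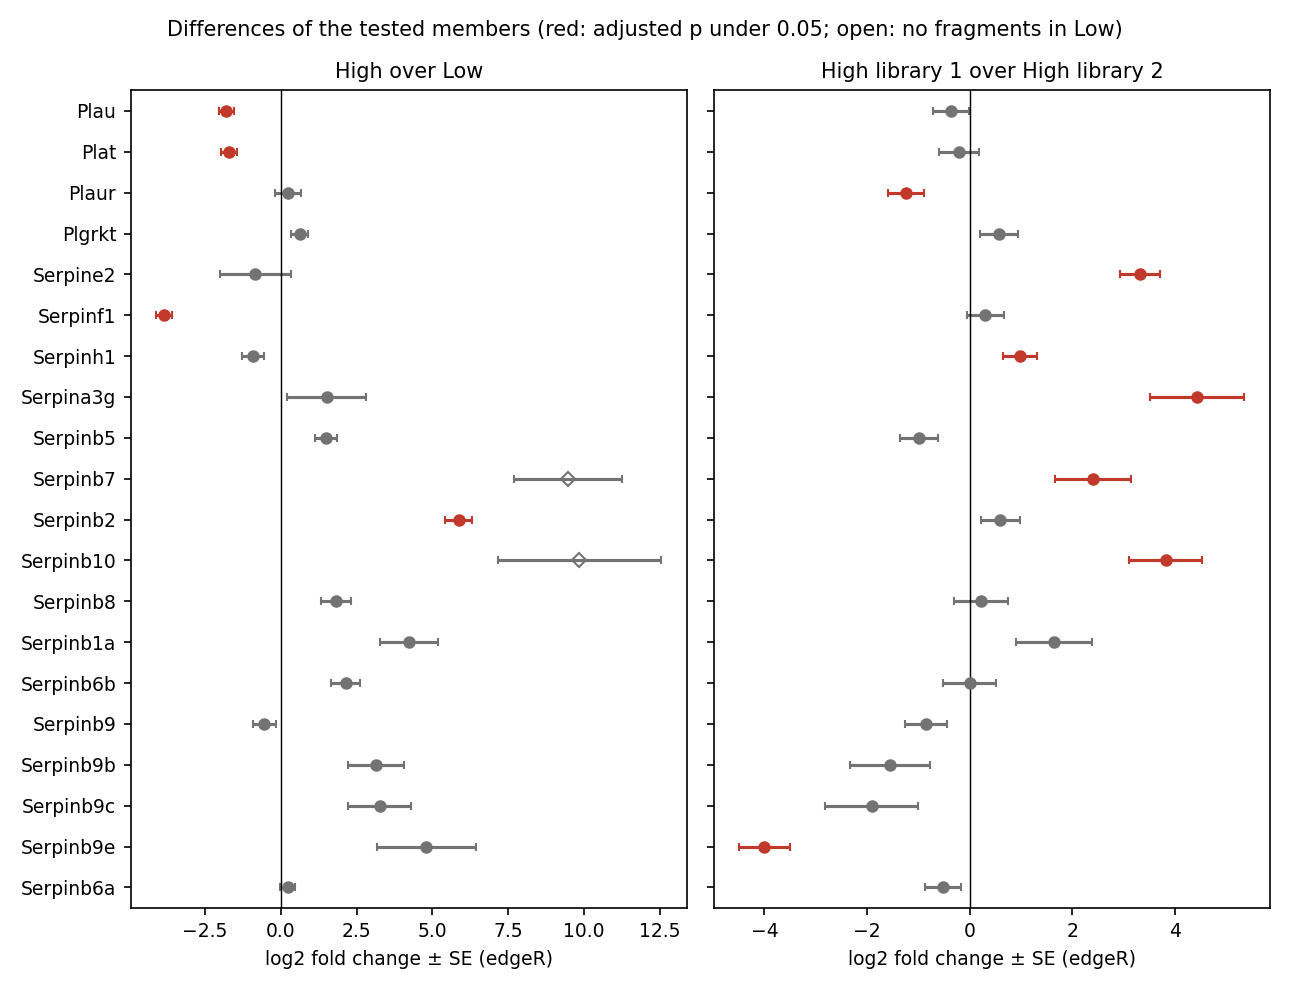
Fitted log2 fold changes with SE of 20 tested members with at least 1 FPKM, for High over Low (left) and High library 1 over High library 2 (right), with adjusted p under 0.05 in red. On the left Plau, Plat, Serpinf1 and Serpinb2 are red, on the right Plaur, Serpine2, Serpinh1, Serpina3g, Serpinb7, Serpinb10 and Serpinb9e, and the open symbols of Serpinb7 and Serpinb10 have no fragments in Low, so their position on the left depends on the fit.

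Serpinb2 lies in a cluster of 12 clade B serpins that spans 749.3 kb of chromosome 1 (106861173 to 107610484, mm10). Fragments were found for 6 of the 12. Of these, 3 had none in Low and so could not lie lower in High. For the other 3, Serpinb2, Serpinb5 and Serpinb8, both High libraries lay above both Low libraries, as did 25.4% of all genes tested. At one end, Serpinb5 (maspin, an intracellular serpin of mammary epithelium with no known protease target) had 13.6 and 27.1 FPKM in High against 6.7 and 7.8 FPKM in Low (log2 fold change 1.5 ± 0.36 SE, adjusted p = 0.0881). At the other end, Serpinb8, described in human as an inhibitor of furin, had 3.91 and 2.55 FPKM in High against 0.61 and 0.645 FPKM in Low (log2 fold change 1.83 ± 0.50 SE, adjusted p = 0.114). Neither passed edgeR's test, and DESeq2 called both.

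Between them, 3 serpins had no fragment in either Low library. Serpinb7 (megsin, a serpin of epidermis and of mesangial cells) had 123 and 33 fragments in High, that is 4.2 and 0.787 FPKM. It was at least 51.1-fold higher in High, taking 3 fragments over the Low group as the floor, and at least 18.3-fold in High library 2 alone (adjusted p = 0.0706). Serpinb10 (bomapin, known from blood-forming cells and annotated in mouse as a polymorphic pseudogene) had 179 and 18 fragments in High, at least 64.5-fold higher over the group and at least 10-fold in High library 2 alone (adjusted p = 0.219). The annotated spans overlap, as Serpinb10 begins at 107529003 and Serpinb2 ends at 107535478 on the same strand. The split of fragments between these neighbours is therefore uncertain. Serpinb11 had 21 and 4 fragments in High and did not enter the test. In between, Serpinb12, Serpinb13, Serpinb3a, Serpinb3b, Serpinb3c and Serpinb3d had 0 fragments in all libraries.

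Genes outside the cluster were also read. On the side of Serpinb5, Vps4b had 46.9 and 37.5 FPKM in High against 36.7 and 44.2 FPKM in Low, Kdsr 13.8 and 12.6 FPKM against 10.1 and 11.8 FPKM, and Bcl2 3.25 and 5.13 FPKM against 4.32 and 4.96 FPKM. On the other side the nearest gene tested was Dsel, which begins 4248.2 kb beyond the cluster, with 5.25 and 3.98 FPKM in High against 4.86 and 6.72 FPKM in Low. Of these, Kdsr alone had both High libraries above both Low libraries. None of the 4 passed the test, with adjusted p from 0.561 to 0.911.

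**Figure D3:**
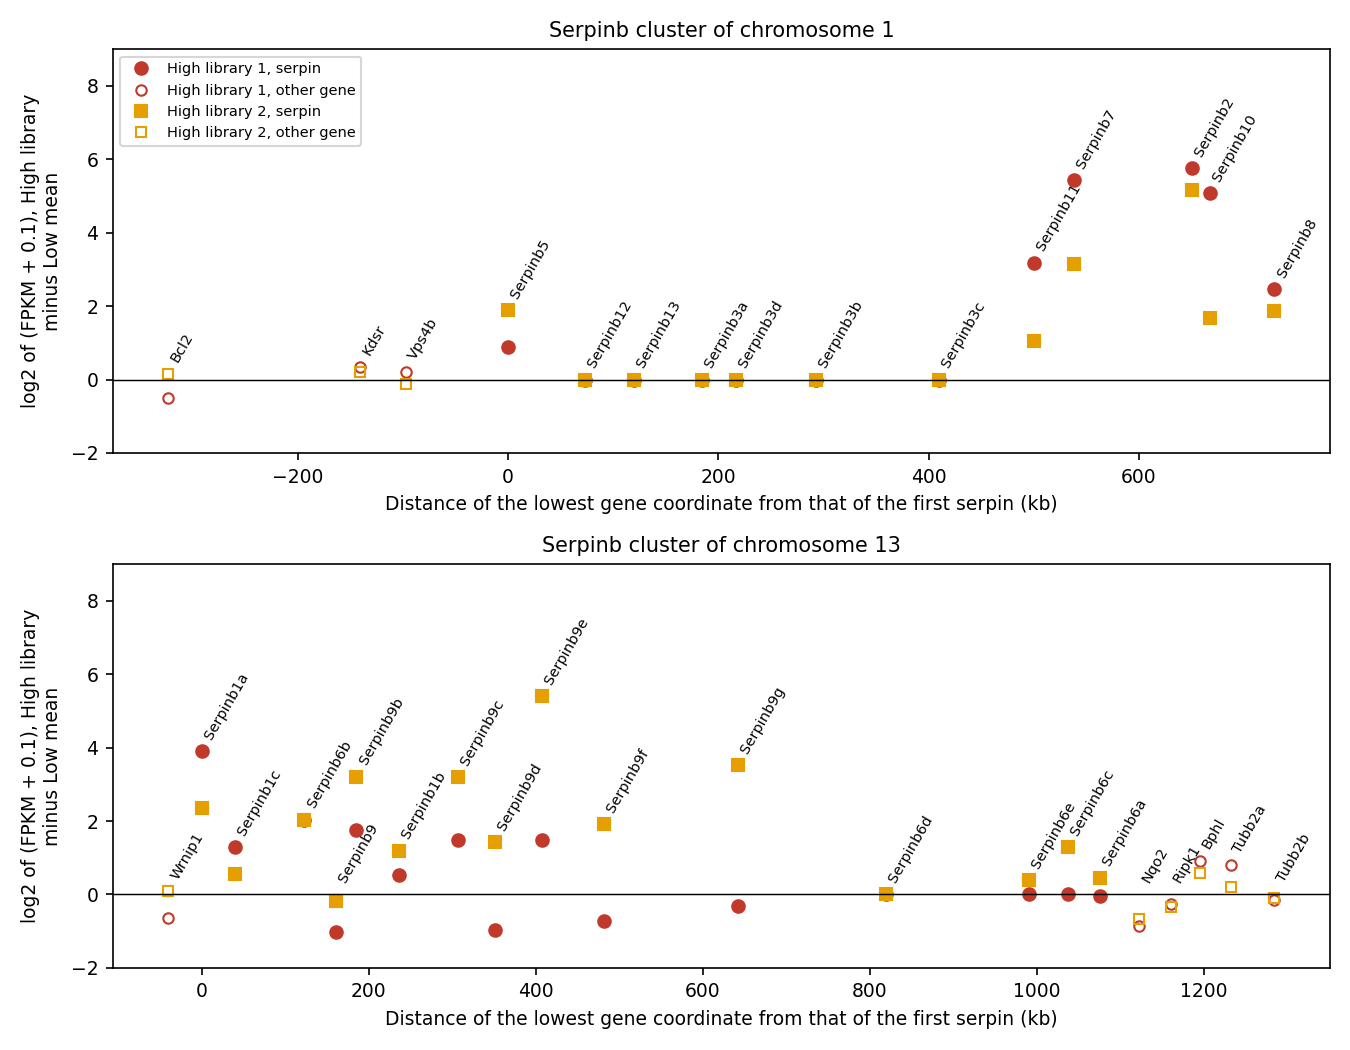
Difference of each High library from the mean of the Low libraries, on the scale of log2 (FPKM + 0.1), along the Serpinb clusters of chromosome 1 and chromosome 13, with neighbouring genes as open symbols. On chromosome 1 the detected serpins lie above 0 in both High libraries, 3 of them with no fragments in Low, and the flanking genes lie nearer to 0, while on chromosome 13 Serpinb9b, Serpinb9c, Serpinb9d, Serpinb9e, Serpinb9f and Serpinb9g lie higher in High library 2 than in High library 1.

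The promoters of the 5 chromosome 1 members with at least 1 FPKM are shown because each holds TGANTCA. This is a loose form of the AP-1 motif, with any base allowed in the middle. The AP-1 element is bound by Fos and Jun proteins and known from protease genes. The sequences are the 250 bases before the annotated start, 5′ to 3′, from RefSeq on build GRCm38.p6, in the order of the genes on the chromosome. Of the 22 members with at least 1 FPKM, 18 were matched to an entry by symbol, and Plau, Plat and Serpinb1a were among those that were not. Capitals mark TGANTCA and the TATA motif TATAAA, searched on both strands. For Serpinb2 the first of its annotated starts is shown.
Serpinb5 (chr1:106860925-106861174, plus strand): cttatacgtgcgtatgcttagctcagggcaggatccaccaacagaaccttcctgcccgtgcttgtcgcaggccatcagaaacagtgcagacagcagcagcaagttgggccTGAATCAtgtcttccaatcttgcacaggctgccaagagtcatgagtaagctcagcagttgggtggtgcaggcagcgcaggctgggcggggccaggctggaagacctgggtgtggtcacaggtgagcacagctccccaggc
Serpinb7 (chr1:107422439-107422688, plus strand): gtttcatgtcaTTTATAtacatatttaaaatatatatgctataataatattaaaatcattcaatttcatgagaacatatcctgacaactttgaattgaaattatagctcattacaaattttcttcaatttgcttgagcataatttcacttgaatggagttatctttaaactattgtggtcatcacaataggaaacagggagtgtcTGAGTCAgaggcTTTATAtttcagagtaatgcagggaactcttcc
Serpinb2 (chr1:107511173-107511422, plus strand): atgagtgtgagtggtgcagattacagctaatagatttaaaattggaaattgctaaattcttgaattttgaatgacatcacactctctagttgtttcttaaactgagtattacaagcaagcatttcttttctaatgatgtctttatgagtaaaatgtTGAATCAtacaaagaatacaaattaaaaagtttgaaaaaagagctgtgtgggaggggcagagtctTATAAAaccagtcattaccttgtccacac
Serpinb10 (chr1:107528753-107529002, plus strand): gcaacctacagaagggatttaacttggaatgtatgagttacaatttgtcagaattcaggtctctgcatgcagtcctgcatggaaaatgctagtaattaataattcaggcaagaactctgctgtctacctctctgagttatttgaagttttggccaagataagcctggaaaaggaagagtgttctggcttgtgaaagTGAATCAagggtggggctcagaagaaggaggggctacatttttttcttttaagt
Serpinb8 (chr1:107589756-107590005, plus strand): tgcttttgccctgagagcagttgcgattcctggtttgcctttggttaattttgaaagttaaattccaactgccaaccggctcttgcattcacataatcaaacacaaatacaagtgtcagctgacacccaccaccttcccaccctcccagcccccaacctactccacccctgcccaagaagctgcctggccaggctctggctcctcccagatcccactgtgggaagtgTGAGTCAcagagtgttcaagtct

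Counted from the start site, TGANTCA begins at -140 in Serpinb5, -45 in Serpinb7, -94 in Serpinb2, -54 in Serpinb10 and -23 in Serpinb8. The middle base is A (TGAATCA) in Serpinb5, Serpinb2 and Serpinb10 and G (TGAGTCA) in Serpinb7 and Serpinb8. With any middle base, TGANTCA was present in 6.75% of all 32851 promoter windows of this length. Among the 63 windows of the 54 members with an entry, 13 held it, and the genes were these 5, Serpinb11 and Serpinb12 of the same cluster, Plaur (TGACTCA at -69), and the liver serpins Serpina1a, Serpina1b, Serpina1c and Serpina1d, which are close copies. None of the 18 windows of the chromosome 13 cluster held it. The E box CACGTG was found in 0 member windows, against 6.02% of all windows. TATAAA was found in 17 of the 63 member windows, against 12.4% of all windows. In the chromosome 1 cluster it was in 3 of 6 windows of the members with at least 1 FPKM, and in 6 of 7 windows of the others. These motifs were chosen after the expression values were known, neighbouring serpins descend from shared ancestors, and a match of letters is not evidence of binding.

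The second clade B cluster, 15 serpins over 1160.7 kb of chromosome 13 (32842092 to 34002794), was led by Serpinb6a, known in human as an inhibitor of cathepsin G. Serpinb6a had 142 and 202 FPKM in High against 147 and 147 FPKM in Low, the steadiest of the abundant serpins, and did not pass (log2 fold change 0.23 ± 0.25 SE, adjusted p = 0.668). Its relative Serpinb6b was low but regular, at 4.38 and 4.39 FPKM in High against 0.969 and 1.03 FPKM in Low (log2 fold change 2.14 ± 0.49 SE, adjusted p = 0.0717). Serpinb1a, an inhibitor of neutrophil elastase, had 3.15 and 1.01 FPKM in High against 0.17 and 0.0635 FPKM in Low (adjusted p = 0.0717), from 94 and 43 fragments against 4 and 3. DESeq2 called both Serpinb6b and Serpinb1a.

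Of the Serpinb9 genes of this cluster, Serpinb9e differed between the clones. Serpinb9e had 1.34 and 21.6 FPKM in High against 0.425 and 0.402 FPKM in Low, 16-fold higher in High library 2 than in High library 1 (adjusted p = 8.52e-14), and the groups did not pass (log2 fold change 4.80 ± 1.63 SE, adjusted p = 0.272). Serpinb9g had 0.1 and 2.75 FPKM in High against 0.127 and 0.169 FPKM in Low, and too few fragments outside High library 2 to enter the test. Serpinb9b, at 0.8 and 2.37 FPKM against 0.0845 and 0.252 FPKM, and Serpinb9c, at 0.479 and 1.81 FPKM against 0.0433 and 0.173 FPKM, lay above Low in both High libraries (adjusted p = 0.131 and 0.165). Serpinb9 itself, an inhibitor of granzyme B, had 3.15 and 5.7 FPKM in High against 5.62 and 7.34 FPKM in Low (adjusted p = 0.494), with High library 2 inside the range of Low. Between the clones, Serpinb9, Serpinb9b and Serpinb9c did not pass (adjusted p from 0.187 to 0.227).

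These are close copies among which fragments may be split wrongly, so they were also summed. The Serpinb9 genes together had 256 and 1713 fragments in High against 267 and 698 fragments in Low, and Serpinb9e gave 922 of the 1713 in High library 2. High library 2 exceeded High library 1 4.66-fold (adjusted p = 4.56e-07), while the groups did not pass (log2 fold change 0.91 ± 0.80 SE, adjusted p = 0.623). The sums of the Serpinb6 genes and of the Serpinb1 genes did not pass either (adjusted p = 0.608 and 0.0944).

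Clade A, which includes the antiproteases of blood plasma, was nearly silent. Of its 24 genes, Serpina3g alone reached 1 FPKM, at 2.94 and 0.133 FPKM in High against 0.602 and 0.48 FPKM in Low. Serpina3g, an intracellular serpin known from mouse leukocytes, was 21.7-fold higher in High library 1 than in High library 2 (adjusted p = 3.92e-05), with the Low libraries between them. The leukocyte list summed to 7.22 and 7.96 FPKM in High against 3.28 and 3.48 FPKM in Low with Cd3e at 0 throughout, and the megakaryocyte list to 1.96 and 1.27 FPKM against 0.564 and 0.404 FPKM. Their part in the results was not tested. Across the whole family, 45 of 67 members stayed under 1 FPKM, and 21 of these had 0 fragments in all libraries. Neuroserpin (Serpini1), antithrombin (Serpinc1), heparin cofactor II (Serpind1) and C1 inhibitor (Serping1) were among those detected below 1 FPKM.

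Clade B without Serpinb6a, its most abundant gene, summed to 67.7 and 90.5 FPKM in High against 15.6 and 18.3 FPKM in Low. Most of the sums in High came from a few genes. Serpinb2 gave 28.2 and 18.7 FPKM, Serpinb5 gave 13.6 and 27.1 FPKM, and Serpinb9e gave 1.34 and 21.6 FPKM. With Serpinb6a, the clade summed to 209 and 292 FPKM in High against 163 and 166 FPKM in Low. These summed levels are a description, with no test.

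Between the clones, 9 of the 24 tested members differed past the threshold, against 10.9% of all genes tested (6.47% higher in High library 1 and 4.46% in High library 2). Among these, High library 1 was higher for Serpine2, Serpinh1, Serpina3g, Serpinb7 and Serpinb10, and High library 2 for Plaur, Serpinb9e and Serping1, the last at 0 and 28 fragments. Plaur was 2.36-fold higher in High library 2 (adjusted p = 0.00817), and Serpinb7 and Serpinb10 were 5.33-fold and 14.2-fold higher in High library 1 (adjusted p = 0.0132 and 4.96e-06). The spread in this test comes from the Low pair alone, as if each High library varied no differently. Serpinb7 and Serpinb10 had 0 fragments in that pair, so their p-values rest on the spread of other genes. The 4 members called between the groups were not among these 9. A gap between the High libraries widens the spread in the group test, so the design itself works against such overlap.

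Other genes of plasminogen activation were read from the same fit. Of 16 partners, 10 were tested, 0 rose and 2 fell, beside 1.14% higher and 1.33% lower over all genes. DESeq2 called 2 higher and 4 lower, beside 4.7% higher and 4.04% lower over all genes. The median log2 fold change of the partners was -0.40, beside 0.03 over all genes. Lrp1, the endocytic receptor that clears complexes of activators and their inhibitors, fell to 9.19 and 4.7 FPKM in High, against 24.9 and 33.5 FPKM in Low (4.17-fold, adjusted p = 0.0443). Tgfb1, a growth factor that plasmin can release from its latent form, fell to 16.2 and 13.3 FPKM in High, against 43.6 and 31.8 FPKM in Low (2.54-fold, adjusted p = 0.0489). The Tgfb1 call held in 7 of 13 alternative settings and that of Lrp1 in 10. The 13 include the fits with a library left out, which take their spread from a single group. S100a10 and Anxa2, which together form a cell-surface receptor for plasminogen, are named for their role after their values were seen. S100a10 had 643 and 414 FPKM in High against 378 and 291 FPKM in Low (adjusted p = 0.271). Anxa2 had 899 and 853 FPKM in High against 544 and 462 FPKM in Low (adjusted p = 0.117). Neither passed the test.

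Of 22 coagulation and thrombin pathway genes, 10 were tested, with a median of -0.63. DESeq2 called 0 higher and 2 lower, beside 4.7% higher and 4.04% lower over all genes. In the edgeR test 0 rose and 1 fell, beside 1.14% higher and 1.33% lower over all genes. The faller was F3, tissue factor, the cell-surface starter of coagulation, at 2.44 and 2.9 FPKM in High against 11.1 and 12 FPKM in Low (4.27-fold lower, adjusted p = 0.0258). Of 21 other pericellular proteases and inhibitors, 16 were tested, 0 rose and 1 fell, beside 1.14% higher and 1.33% lower over all genes, with a median of 1.02. DESeq2 called 5 higher and 1 lower, the opposite balance, beside 4.7% higher and 4.04% lower over all genes. The faller was the membrane protease Fap, at 0.162 and 0.0322 FPKM in High against 7.14 and 10.2 FPKM in Low (93.6-fold lower, adjusted p = 0.00738). Fap also stands among the fibroblast markers.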

How the data were processed

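Strand-specific RNA-seq libraries were prepared from 500 ng of total RNA, according to the labels. The submitters' processing notes name cutadapt 1.5, TopHat2 2.0.13, Cuffdiff 2.2.1 and build mm10. How strand was set in counting is not given in the sources used here. Fragments per gene and library are deposited as estimated counts, per the file headers, of which 99.18% were whole within 1e-06, and all were rounded before testing. The authors' FPKM, per the file headers, is scaled for depth and transcript length and is used here for levels.

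Groups were compared in R 4.3.3 by the two-sided quasi-likelihood test of edgeR 4.0.16, with robust fitting, TMM normalisation, the filter on low counts at a smallest count of 10, and Benjamini-Hochberg adjustment over all 12987 genes tested at 0.05. It had 2 residual degrees of freedom and a coefficient of variation of 32.2%. SEs are the fold change divided by the root of the F statistic. The clones were compared in a fit of 3 groups, with Low as 1 group and each clone as another, which left 1 residual degree of freedom (coefficient 17.2%). The scripts were tested on simulated data with a coefficient of variation below 32.2%, so that run does not show how the test behaves at the spread of these libraries. Alternatives were DESeq2 1.42.0, limma-voom (limma 3.58.1), limma on log2(FPKM + 1) and log2(FPKM + 0.1), RLE size factors, no filter, blocks, and each library left out. The smallest p that an exact permutation test of 2 against 2 libraries allows is 0.333, and no such test was used. Nothing in the labels says that the Low duplicates were separate cultures. The p-values then reflect the spread of these libraries only, and that spread could be technical.

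Members, lists and tests were chosen with earlier results of these data known. Every member of at least 1 FPKM in any library is named, save 1 that is not reported here, in full where it passed, reached 10 FPKM or belongs to the activation genes. In the other lists the genes named are those that passed, or else the 3 with the highest mean FPKM. S100a10, Anxa2, Krt5, Cd3e and the fibroblast markers other than Fap fall outside this rule and were chosen after their values were seen. Positions are those of GENCODE M21 on mm10. No per-sample column was left unused (0). Floors of 3 fragments cover counting error only.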

Additional observations from a re-analysis of the deposited data

Results flagged for a closer look

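The difference between the High libraries, tested itself in the fit with 3 groups, passed for 7 of the members described above with at least 1 FPKM (log2 of High library 1 over High library 2). It was 4.44 for Serpina3g, 3.82 for Serpinb10, 3.32 for Serpine2, 2.41 for Serpinb7 and 0.99 for Serpinh1. It was -4.00 for Serpinb9e and -1.24 for Plaur. For Serpinb7 and Serpinb10, which had no fragments in Low, the test took its spread from other genes. For Plaur, Serpina3g and Serpine2, this left the groups overlapping.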

How the results depend on the processing

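With 2 libraries a group, the number of calls depended on the setting. Members higher in High numbered 1, against 8 with DESeq2 (4.7% of all genes), 5 without the filter (2.62%), 2 with limma on log2(FPKM + 1) (0.631%), 5 with the replicate block (1.72%), and 0 to 11 with a library left out (0 to 10.6%). Members lower numbered 3, against 0 to 6 with a library left out (0 to 8.05%). Calls among plasminogen activation partners numbered 2, against 6 with DESeq2, 4 without the filter, 1 each with limma-voom, limma on log2(FPKM + 1) and the crossed block, and 0 to 9 with a library left out. Calls among coagulation genes numbered 1, against 2 with DESeq2, 2 without the filter, 0 with the crossed block, and 0 to 6. Other pericellular proteases had 1 call, against 6 with DESeq2, 4 without the filter, 2 with the replicate block, and 0 to 11. Collagen genes had 0 calls, against 3 with DESeq2, 2 each without the filter, with limma-voom, with limma on log2(FPKM + 1) or log2(FPKM + 0.1) and with the replicate block, and 0 to 12. Over all genes, edgeR called 0 without either Low library, against 2193 without High library 1 and 2475 without High library 2. The cause of these differences was not tested. Of all genes, 2.47% were called in either direction in the main test and 8.75% with DESeq2. The share was 4.88% without the filter, 3.61% with the replicate block, 1.67% with limma-voom and 0.724% with the crossed block. It was 1.99% with limma on log2(FPKM + 1) and 2.05% on log2(FPKM + 0.1). Higher list counts with DESeq2, without the filter or without a High library thus came with more calls over all genes. Plau, Serpinb2 and Serpinf1 passed in 11 of 13 alternatives each and Plat in 10, and the crossed block lost Plat. The 13 include the fits with a library left out, which take their spread from a single group.

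Log2 fold changes turned round for Plaur (-0.01 without Low library 2, -0.52 without High library 2, and -0.52 to 0.73 with any library left out), Serpina3g (-1.97 without High library 1, range -1.97 to 2.47), Serpinb6a (-0.05 without High library 2, range -0.05 to 0.47) and Serpine2 (0.03 without High library 2, range -3.29 to 0.03), and between the clones for Serpinb6b (0.01 with RLE size factors). The library numbers only name the libraries. Deviations of same-numbered libraries correlated at -0.207 across genes, and the crossed pairing, added after seeing the data, called 94 genes, against 469 with the replicate block. The clone test without a Low library has no residual degrees of freedom and was not run. A minimum of 0.5 or 2 FPKM would have named 26 or 21 members.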
